A study of Mus musculus with 15 samples.

Results

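The genes of alternative activation were followed here through the 4 cell populations of the series. The 8 genes were Retnla, Arg1, Chil3, Mrc1, Mgl2, Clec10a, Il4ra and Pdcd1lg2, chosen by symbol as established marks of the response of mouse macrophages to IL-4 and IL-13, and all 8 were found by their Ensembl identifiers among the 19456 genes of the count table. RNA was sequenced from 15 libraries of adult male wild-type C57BL/6 mice, for which the labels name no treatment. Ly6Chi blood monocytes gave 3 libraries. Macrophages of the small intestine gave 4 libraries for each of 3 subsets, named by whether they lacked Tim-4 and CD4 (Tim-4-CD4-), had CD4 but not Tim-4 (Tim-4-CD4+) or had both proteins (Tim-4+CD4+). Sorted cells of 3 mice were pooled for a library, and of 4 mice for monocyte replicate 2. The macrophages were sorted as live CD45+CD11b+CD64+MHCII+ cells from which lymphocytes, granulocytes and Ly6C+ cells had been removed by antibody, so low Ly6C belongs to how they were collected. The study asked how macrophages of the gut differ by Tim-4 and CD4, and how far blood monocytes replenish each subset. It reported high replenishment of Tim-4-CD4- macrophages, slow replenishment of Tim-4-CD4+ macrophages, and local maintenance of Tim-4+CD4+ macrophages.

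IL-4 and IL-13 are cytokines of type 2 immunity, the response to helminths and allergens. They bind receptors that share the IL-4 receptor α chain, activate JAK kinases and the transcription factor STAT6, and turn on a group of genes in macrophages for secreted lectin-like proteins, arginine metabolism, endocytic lectin receptors and a ligand of the inhibitory receptor PD-1. Some of these genes also have other inputs, so a macrophage can express part of the group without the rest.

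Retnla and Pdcd1lg2 were the members whose levels separated Tim-4-CD4- macrophages from both CD4+ subsets most clearly, and they did so in opposite directions. The study had singled out Retnla in these libraries, so its difference from that subset is a description. The stretches upstream of Retnla, Pdcd1lg2 and Chil3 are shown because a search for sites of the STAT type found matches in these 3 alone. The search covered the 6 members present in the RefSeq promoter table (all but Arg1 and Clec10a). The stretches searched ran from 99 bases for Il4ra and 192 for Retnla to 250 for Chil3 and Pdcd1lg2. Some were thus shorter than the windows of 250 bases given below. The capitals mark TTC and GAA with 4 bases between them, the spacing that STAT6 prefers, in Retnla and Pdcd1lg2, and with 3 bases between them, the spacing of other STAT factors, in Chil3. The sequences are written 5′ to 3′ on the strand of the gene, come from RefSeq on GRCm38.p6, and end at the base before the annotated start of the gene.
Retnla, chr16:48842359-48842550, plus strand: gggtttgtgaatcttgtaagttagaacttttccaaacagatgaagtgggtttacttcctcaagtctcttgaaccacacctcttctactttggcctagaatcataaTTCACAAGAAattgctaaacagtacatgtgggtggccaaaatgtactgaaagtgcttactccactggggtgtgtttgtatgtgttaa
Pdcd1lg2, chr19:29410669-29410918, plus strand: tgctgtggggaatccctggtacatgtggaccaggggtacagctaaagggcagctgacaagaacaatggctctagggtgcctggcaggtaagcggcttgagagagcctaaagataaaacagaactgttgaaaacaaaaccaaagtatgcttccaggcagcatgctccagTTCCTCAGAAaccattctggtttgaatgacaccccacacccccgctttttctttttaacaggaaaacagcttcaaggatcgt
Chil3, chr3:106167565-106167814, minus strand: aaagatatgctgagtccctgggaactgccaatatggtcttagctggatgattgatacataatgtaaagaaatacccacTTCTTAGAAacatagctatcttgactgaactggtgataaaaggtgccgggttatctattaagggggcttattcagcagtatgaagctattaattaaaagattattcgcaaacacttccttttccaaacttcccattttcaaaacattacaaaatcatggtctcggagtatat
The match began 87 bases before the end of the Retnla stretch, 82 bases before that of Pdcd1lg2 and 172 bases before that of Chil3. Both motifs read the same on both strands. Of 32851 windows of 250 bases upstream of RefSeq genes, 5.85% held the form with 4 bases between and 7.02% the form with 3, so the matches are a description of these letters only. The Retnla stretch also held 1 match to the C/EBP-type motif TTGCNNAA and 1 to the PU.1-type motif GAGGAAGT, searched on both strands and present in 9.56% and 2.44% of the windows.

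Library depth, as reads counted on genes, was 39388763 at the lowest and 151510641 at the highest. The mRNAs of the sorted proteins followed the labels, with Timd4 at 336 to 390 CPM (counts scaled to a common library size) in Tim-4+CD4+ macrophages and at most 4.47 CPM elsewhere, and Cd4 at 484 to 924 CPM in the CD4+ subsets and at most 39.2 CPM elsewhere. The summed level of 7 macrophage markers was 22947 to 29467 CPM in macrophage libraries and 3375 to 3698 CPM in monocyte libraries. One library stood apart in the markers of another cell type. Replicate 3 of Tim-4-CD4- macrophages had 17.9 CPM of Flt3, 24.7 CPM of Itgae and 5.3 CPM of Zbtb46, genes of conventional dendritic cells, against at most 7.57, 5.43 and 1.48 CPM in the other 3 libraries of the subset. It was the highest of its subset in 6 of 9 such markers (also Ccr7, Kit and Cd24a), but not in Xcr1, Clec9a or Dpp4, and for Clec9a it was the lowest, at 24.7 CPM against up to 36.2 CPM. Jchain, a plasma cell gene, was at 189 to 369 CPM in all 12 macrophage libraries and at most 0.224 CPM in monocytes.

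Against monocytes, all 8 members passed the test in each macrophage subset (edgeR quasi-likelihood test with Benjamini-Hochberg adjustment, adjusted p under 0.05). In every subset 7 members were higher and Chil3 was lower. These counts stand against a background in which 65.4% of the 15802 genes tested differed between Tim-4-CD4- macrophages and monocytes, 69.8% for Tim-4-CD4+ macrophages and 70.9% for Tim-4+CD4+ macrophages, with 37.3%, 39.1% and 39.5% higher and 28.1%, 30.7% and 31.3% lower. The macrophage and monocyte libraries did not overlap for 8, 7 and 8 members, the exception being Arg1 in Tim-4-CD4+ macrophages, and for 67.6%, 70.1% and 68.7% of all genes. The median log2 fold change of the members over monocytes was 5.47 in Tim-4-CD4- macrophages, and that of all genes tested was 0.08. These counts and the median include Retnla. The study had picked Retnla from these libraries as higher in Tim-4-CD4- macrophages than in monocytes too, so that difference is a description. Of the other 7 members, all 7 passed in each comparison, 6 higher and 1 lower. The 3 comparisons share the monocyte libraries.

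Between the macrophage subsets fewer members differed. In Tim-4-CD4+ against Tim-4-CD4- macrophages, 3 members passed, with Pdcd1lg2 higher and Retnla and Clec10a lower, where 10.1% of all genes passed (4.52% higher, 5.53% lower). In Tim-4+CD4+ against Tim-4-CD4- macrophages, 4 members passed, with Pdcd1lg2 higher and Retnla, Mgl2 and Clec10a lower, where 23.1% of all genes passed (11.3% higher, 11.9% lower). In Tim-4+CD4+ against Tim-4-CD4+ macrophages, only Retnla passed by this test, and it was higher, where 3.41% of all genes passed (2.07% higher, 1.34% lower). The libraries of the compared subsets did not overlap for 3, 5 and 3 members in these comparisons, against 19.1%, 26.4% and 9.63% of all genes. These members included Retnla in each comparison. Retnla had been singled out by the study, in these libraries, as a gene of Tim-4-CD4- macrophages, so its difference from that subset is a description. Of the other 7 members, 2, 3 and 0 passed in these 3 comparisons. The first 2 comparisons share the Tim-4-CD4- libraries.

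**Figure D1:**
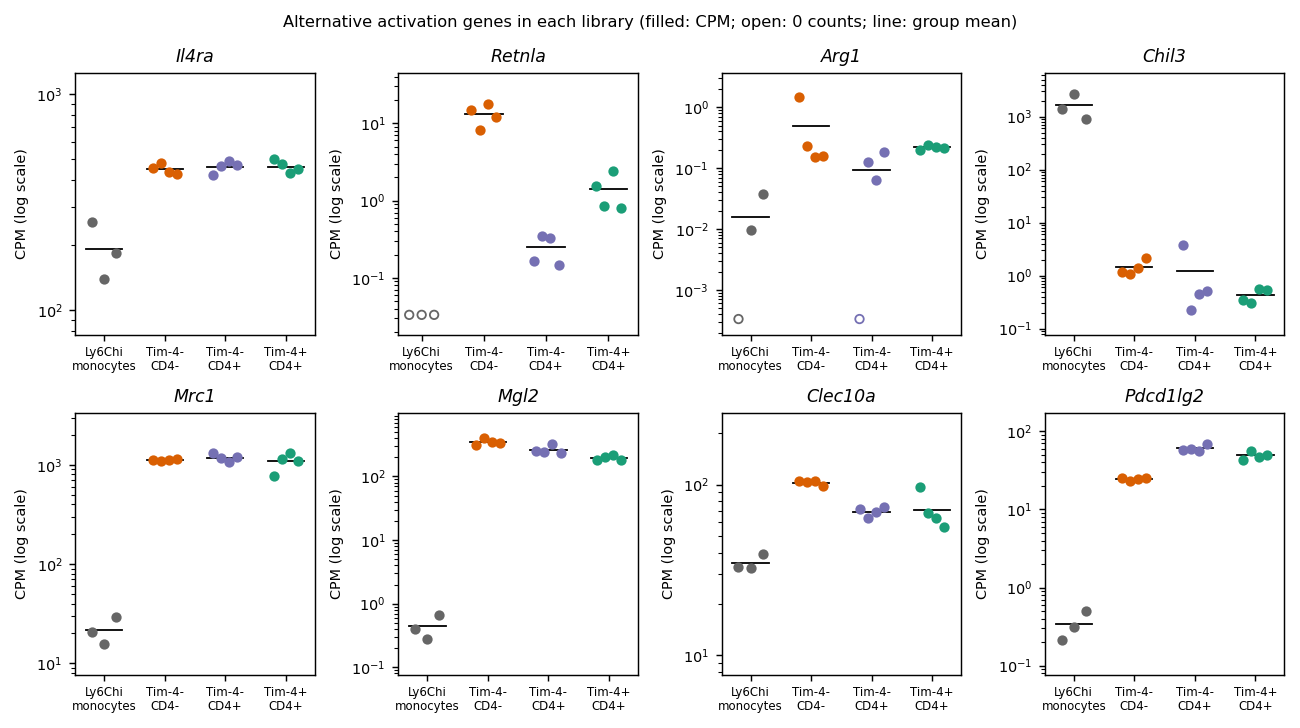
CPM of the 8 alternative activation genes (log scale, 1 panel per gene) in each of the 15 libraries, grouped by population, with a line at the group mean and open circles for libraries with 0 counts. Retnla was at 8.29 to 17.8 CPM in Tim-4-CD4- macrophages and at 0 in monocytes, Chil3 was at 891 CPM or more in monocytes and at most 3.79 CPM in macrophages, and Il4ra and Mrc1 lay at similar heights in the 3 subsets.

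Il4ra encodes the α chain shared by both receptors for IL-4. It lies at chr7:125552120-125579474 (plus strand, GRCm38). Its level was 254, 139 and 184 CPM in the 3 monocyte libraries. In macrophages it was 452, 479.5, 435 and 425 CPM in Tim-4-CD4-, 422, 463, 488 and 466 CPM in Tim-4-CD4+, and 498, 471, 428 and 446 CPM in Tim-4+CD4+ libraries. All macrophage libraries lay above all monocyte libraries, and the 3 subsets overlapped. The log2 fold change over monocytes was 1.22 (SE 0.148, adjusted p = 1.8e-06) in Tim-4-CD4-, 1.26 (SE 0.148) in Tim-4-CD4+ and 1.26 (SE 0.148) in Tim-4+CD4+ macrophages. Between subsets the log2 differences were 0.04, 0.04 and 0.003, with 95% intervals that lay within -0.278 and 0.322. In a bulk library, a lower level from fewer cells that express a gene cannot be told apart from less RNA in each cell.

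Of the other genes of the receptor pathway, from a list of 15, 13 could be tested. Against monocytes 4 were higher and 6 lower in each subset, beside 37.3% to 39.5% of all genes higher and 28.1% to 31.3% lower. The genes that fell in all 3 subsets included Stat6, the factor that carries the signal to the nucleus, at 381 to 402 CPM in monocytes and 211 to 268 CPM in macrophages, and Il13ra1, the second chain of the receptor that binds both cytokines, at 186 to 227 CPM in monocytes and 66.4 to 130.1 CPM in macrophages. Cish, an inhibitor of cytokine signaling, rose from at most 0.793 CPM in monocytes to 11.7 to 20.9 CPM. Between the macrophage subsets none passed in Tim-4-CD4+ against Tim-4-CD4- or in Tim-4+CD4+ against Tim-4-CD4+ macrophages, where 10.1% and 3.41% of all genes passed. Jak2, a kinase of the receptor, was the 1 of 13 that passed in Tim-4+CD4+ against Tim-4-CD4- macrophages, where 23.1% of all genes passed, with 74, 71.9, 92.5 and 79.1 CPM in Tim-4-CD4- and 43.8, 63.6, 64.4 and 64.9 CPM in Tim-4+CD4+ libraries. Its log2 fold change was -0.42 (SE 0.126, adjusted p = 0.022), and without Tim-4-CD4- replicate 3 it was -0.34 with an adjusted p of 0.082. The cytokines were near the detection limit in these sorted cells, with Il4 at most 0.117 CPM and Il13 at most 0.281 CPM in any library.

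Retnla encodes RELMα, a small secreted protein of the resistin family that is induced in macrophages during worm infection. It has a short transcript of 599 bases, all of its exons lie within chr16:48842551-48844461, and the STAT-type match shown above lies upstream of it. No read was counted in any of the 3 monocyte libraries. Tim-4-CD4- macrophages had 14.9, 8.29, 17.8 and 11.9 CPM, from 461 to 824 counts per library. Tim-4-CD4+ macrophages had 0.165, 0.354, 0.332 and 0.149 CPM, from 9 to 26 counts per library, and Tim-4+CD4+ macrophages had 1.54, 0.861, 2.43 and 0.796 CPM, from 48 to 158 counts. The 4 populations did not overlap in any library. Tim-4-CD4- macrophages were highest, Tim-4+CD4+ macrophages came next, and Tim-4-CD4+ macrophages were just above the monocytes.

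The log2 fold change of Retnla from Tim-4-CD4- macrophages was -5.78 (SE 0.449) in Tim-4-CD4+ macrophages. In Tim-4+CD4+ macrophages it was -3.24 (SE 0.381), and both are given as a description. These correspond to levels 55.0-fold and 9.45-fold lower. The difference between the CD4+ subsets was tested: Retnla was 5.83-fold higher in Tim-4+CD4+ than in Tim-4-CD4+ macrophages (log2 fold change 2.54, SE 0.419, edgeR adjusted p = 0.0022), and the call held with each library left out in turn, at log2 fold changes of 2.17 to 2.78. Against a floor of 3 counts in each monocyte library, Retnla was at least 374-fold higher in Tim-4-CD4-, at least 7.06-fold higher in Tim-4-CD4+ and at least 39.7-fold higher in Tim-4+CD4+ macrophages.

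The markers of dendritic cells were set beside Retnla, since those cells share the tissue. The 9 listed markers summed to 185, 132, 234 and 164 CPM in the Tim-4-CD4- libraries, 116 to 166 CPM in Tim-4-CD4+ and 111 to 147 CPM in Tim-4+CD4+ libraries. Of the 9 markers, Flt3, Itgae and Kit were lower in Tim-4-CD4+ than in Tim-4-CD4- macrophages, and Flt3, Ccr7, Itgae and Kit in Tim-4+CD4+ macrophages. None of the 9 was at 0 in a macrophage library. Xcr1 was at 1.78 to 4.22 CPM and Clec9a at 21.2 to 37.1 CPM in all 3 subsets. The Tim-4-CD4- libraries had the same order in the sum of the markers and in Retnla, with replicate 3 highest and replicate 2 lowest in both. In the CD4+ subsets the orders differed. Replicate 3 of Tim-4+CD4+ macrophages had the lowest sum of its subset, at 111 CPM, and the highest Retnla, at 2.43 CPM. With Tim-4-CD4- replicate 3 left out, the Retnla log2 fold changes from Tim-4-CD4- were -5.60 in the Tim-4-CD4+ subset and -3.06 in the Tim-4+CD4+ subset. The part of dendritic cells in the level of Retnla was not tested, since the markers were also present in the remaining libraries.

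**Figure D2:**
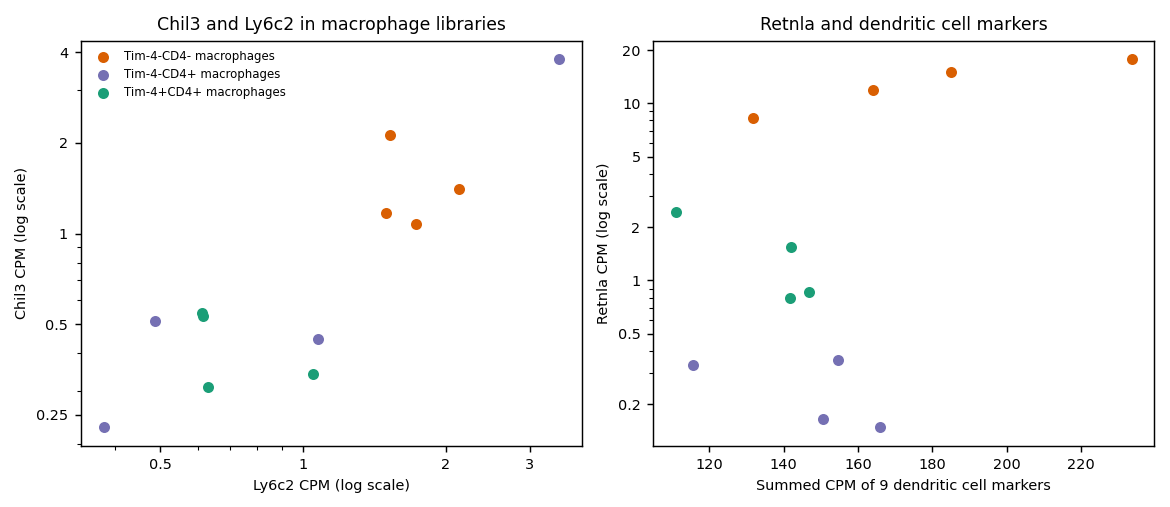
Left, CPM of Chil3 against CPM of Ly6c2 (both log scales) in the 12 macrophage libraries, colored by subset. Right, CPM of Retnla (log scale) against the summed CPM of 9 dendritic cell markers in the same libraries. The highest Chil3 point, at 3.79 CPM, is Tim-4-CD4+ replicate 1, which also has the most Ly6c2, at 3.46 CPM, and the highest point on the right is Tim-4-CD4- replicate 3, at a marker sum of 234 CPM and 17.8 CPM of Retnla.

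Of the other resistin-like genes, Retnlg was the 1 present in the table. It had no counts in monocytes and at most 1.12 CPM in macrophages, and it passed in no comparison between subsets.

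Arg1 encodes arginase 1, which turns arginine into ornithine and urea and is often used as the defining enzyme of alternative activation. It was low in every population. Monocytes had 0, 0.00973 and 0.0372 CPM, that is 3 counts in all. Tim-4-CD4- macrophages had 1.44, 0.235, 0.151 and 0.155 CPM, Tim-4-CD4+ macrophages had 0, 0.126, 0.0639 and 0.182 CPM, and Tim-4+CD4+ macrophages had 0.195, 0.241, 0.225 and 0.216 CPM. The first Tim-4-CD4- library held 79 of the 106 counts of its subset and was above all others. The remaining libraries of that subset overlapped with both CD4+ subsets, and the Tim-4+CD4+ libraries lay above the Tim-4-CD4+ libraries without overlap.

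The ratio of pooled Arg1 levels to monocytes was 52.7 in Tim-4-CD4- macrophages, with a 95% counting interval of 17.6 to 260.0 (exact binomial). Without replicate 1 it was 18.5, with an interval of 5.7 to 95.4, an alternative chosen after seeing the data, and the fitted log2 fold change went from 5.26 to 3.82. It was 11.5, with an interval of 3.63 to 58.1, in Tim-4-CD4+ and 21.8, with an interval of 7.18 to 108.0, in Tim-4+CD4+ macrophages. These intervals cover counting error only. The edgeR adjusted p was 0.0014, 0.047 and 0.0072. The Tim-4-CD4+ libraries overlapped with the monocytes, and that call was lost in 9 of 21 alternative settings. No difference in Arg1 between macrophage subsets passed. The fitted log2 difference of Tim-4+CD4+ from Tim-4-CD4- macrophages was -1.18 (95% interval -2.94 to 0.57) with all libraries and 0.28 without Tim-4-CD4- replicate 1. That replicate was also highest of its subset in Kdr, an endothelial gene, at 10.1 CPM against 2.36 to 4.52 CPM, and the relation to Arg1 was not tested. Nos2, the enzyme that competes with arginase for arginine, was at most 0.475 CPM in any library, and Arg2, the mitochondrial arginase, was at most 1.6 CPM.

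Chil3 encodes Ym1, a secreted chitinase-like lectin that is made by alternatively activated macrophages and also by monocytes and neutrophils. It was the member that ran against the others. Monocytes had 1409, 2639.6 and 891 CPM. Tim-4-CD4- macrophages had 1.17, 1.07, 1.40 and 2.12 CPM, Tim-4-CD4+ macrophages had 3.79, 0.228, 0.448 and 0.513 CPM, and Tim-4+CD4+ macrophages had 0.341, 0.310, 0.547 and 0.531 CPM. All macrophage libraries lay far below all monocyte libraries. The log2 fold change from monocytes was -10.19 (SE 0.731), -10.44 (SE 0.736) and -11.96 (SE 0.788), with edgeR adjusted p of at most 2.6e-09, and without Tim-4-CD4+ replicate 1 the second of these was -11.87. Neutrophil markers were low in the monocytes, where the 4 markers in the table summed to 1.34 to 3.66 CPM. Chil4, the near-identical neighbor of Chil3, had 0.111 to 0.535 CPM in monocytes and no counts in macrophages. Since reads that matched both genes would have been discarded as not unique, the levels of both may be understated.

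Among macrophages, Chil3 differed most between libraries of 1 subset. Replicate 1 of Tim-4-CD4+ macrophages had the most Chil3, and it was also the highest of its subset in the monocyte gene Ly6c2, at 3.46 CPM. No subset comparison passed with all libraries. In Tim-4+CD4+ against Tim-4-CD4- macrophages the log2 fold change was -1.77 (SE 0.702, adjusted p = 0.081), although no library of one subset overlapped with the other, as for 26.4% of all genes. Without Tim-4-CD4+ replicate 1, the same difference was -1.76 with an adjusted p of 0.0036, and Tim-4-CD4+ macrophages were below Tim-4-CD4- macrophages by -1.70 on the log2 scale (SE 0.419, adjusted p = 0.019) where the value with all libraries was -0.26. The ratio of Chil3 to Ly6c2 was 0.912 to 3.22 in monocyte libraries and 0.324 to 1.39 in macrophage libraries. Ccr2, the chemokine receptor of classical monocytes, was at 510.2 to 759 CPM in Tim-4-CD4-, 65.2 to 113 CPM in Tim-4-CD4+ and 4.84 to 15.8 CPM in Tim-4+CD4+ libraries. The part of monocyte RNA in the level of Chil3 was not tested.

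Mrc1 encodes the mannose receptor CD206, which takes up glycoproteins that end in mannose. It lies at chr2:14229392-14332057 and had the highest level per kilobase of exon of the 8 members in each macrophage subset. Monocytes had 20.8, 15.5 and 29.3 CPM. Macrophages had 1113, 1095, 1119.7 and 1151 CPM in Tim-4-CD4-, 1328, 1162, 1059 and 1190.2 CPM in Tim-4-CD4+, and 766, 1143, 1327 and 1096 CPM in Tim-4+CD4+ libraries. All were above all monocyte libraries, and the subsets overlapped. The log2 fold change over monocytes was 5.68 (SE 0.234), 5.76 (SE 0.235) and 5.64 (SE 0.233), with edgeR adjusted p of at most 1.9e-12. Between subsets the log2 differences were 0.08, -0.05 and -0.13, and the 95% intervals lay within -0.485 and 0.437.

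Mgl2 and Clec10a are neighbors on chromosome 11 and encode MGL2 (CD301b) and MGL1 (CD301a), paired lectins for galactose and N-acetylgalactosamine. Reads that match both would not have been counted, which bears on both genes. Mgl2 was at 0.404, 0.282 and 0.669 CPM in monocytes. In macrophages it was at 315, 396, 349 and 336 CPM in Tim-4-CD4-, 249, 241, 329 and 238 CPM in Tim-4-CD4+, and 184, 206, 219 and 183 CPM in Tim-4+CD4+ libraries. The 3 subsets stepped down in this order, and only replicate 3 of Tim-4-CD4+ macrophages crossed into the range of the subset above. Over monocytes the Mgl2 log2 fold changes were 9.68 (SE 0.251), 9.28 (SE 0.248) and 8.87 (SE 0.245).

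Mgl2 was 1.76-fold lower in Tim-4+CD4+ than in Tim-4-CD4- macrophages (log2 fold change -0.82, SE 0.144, edgeR adjusted p = 5.2e-04). The steps between neighboring subsets did not pass, at -0.40 (SE 0.144, adjusted p = 0.095) for Tim-4-CD4+ against Tim-4-CD4- and -0.42 (SE 0.144, adjusted p = 0.16) for Tim-4+CD4+ against Tim-4-CD4+ macrophages. Without Tim-4-CD4+ replicate 3, the first step was -0.53 with an adjusted p of 0.024. DESeq2 called both steps, at -0.38 (adjusted p = 0.041) and -0.41 (adjusted p = 0.048). The fit of only the compared populations called the first, at -0.39 (adjusted p = 0.043).

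Clec10a was at 32.9, 32.3 and 39.3 CPM in monocytes. Macrophages had 104, 103, 105 and 98.7 CPM in Tim-4-CD4-, 71.8, 63.5, 69.4 and 73.6 CPM in Tim-4-CD4+, and 96.4, 68.3, 63.5 and 56.7 CPM in Tim-4+CD4+ libraries. Tim-4-CD4- libraries were above all others, and the CD4+ subsets overlapped. The log2 fold change of Clec10a was -0.56 in Tim-4-CD4+ (SE 0.128, edgeR adjusted p = 0.0088) and -0.53 in Tim-4+CD4+ macrophages (SE 0.128, adjusted p = 0.0062) from Tim-4-CD4- macrophages. Without Tim-4-CD4- replicate 3, the highest of its subset in 6 of 9 dendritic cell markers, both calls held, at -0.55 and -0.51. The part of dendritic cells in the level of Clec10a was not tested, since the markers were also present in the remaining libraries. Over monocytes the log2 fold change of Clec10a was 1.56, 1.00 and 1.03, far less than the change of Mgl2. The ratio of Mgl2 to Clec10a in a library was 0.00874 to 0.0170 in monocytes and 1.91 to 4.75 in macrophages.

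Pdcd1lg2 encodes PD-L2, a ligand of the inhibitory T cell receptor PD-1 that IL-4 induces through STAT6. It was the member that was higher in the CD4+ subsets. Monocytes had 0.213, 0.311 and 0.502 CPM. Macrophages had 25.3, 22.9, 24.8 and 25.6 CPM in Tim-4-CD4-, 57.3, 59.6, 56.3 and 68.4 CPM in Tim-4-CD4+, and 43.2, 56.3, 47.2 and 49.7 CPM in Tim-4+CD4+ libraries. Every library of both CD4+ subsets was above every Tim-4-CD4- library, and these were above every monocyte library. Pdcd1lg2 was 2.45-fold higher in Tim-4-CD4+ (log2 fold change 1.29, SE 0.128, edgeR adjusted p = 6.2e-06) and 1.99-fold higher in Tim-4+CD4+ macrophages (0.99, SE 0.127, adjusted p = 2.3e-05) than in Tim-4-CD4- macrophages. Between both CD4+ subsets the log2 difference was -0.30 (95% interval -0.563 to -0.0340, adjusted p = 0.27). Over monocytes the log2 fold changes were 6.30 (SE 0.2003), 7.59 (SE 0.207) and 7.29 (SE 0.205).

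The gene overlaps the antisense gene A930007I19Rik, which was at 1.82 to 3.92 CPM in macrophages. Cd274, which encodes PD-L1, the other ligand of PD-1, was at 434 to 459.5 CPM in Tim-4-CD4-, 564 to 719 CPM in Tim-4-CD4+ and 592 to 755 CPM in Tim-4+CD4+ libraries. It passed in Tim-4+CD4+ against Tim-4-CD4- macrophages (log2 fold change 0.53, SE 0.187, edgeR adjusted p = 0.049), a call that held in 4 of 15 fits with 1 library left out, and not in Tim-4-CD4+ macrophages (0.53, SE 0.187, adjusted p = 0.087).

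**Figure D3:**
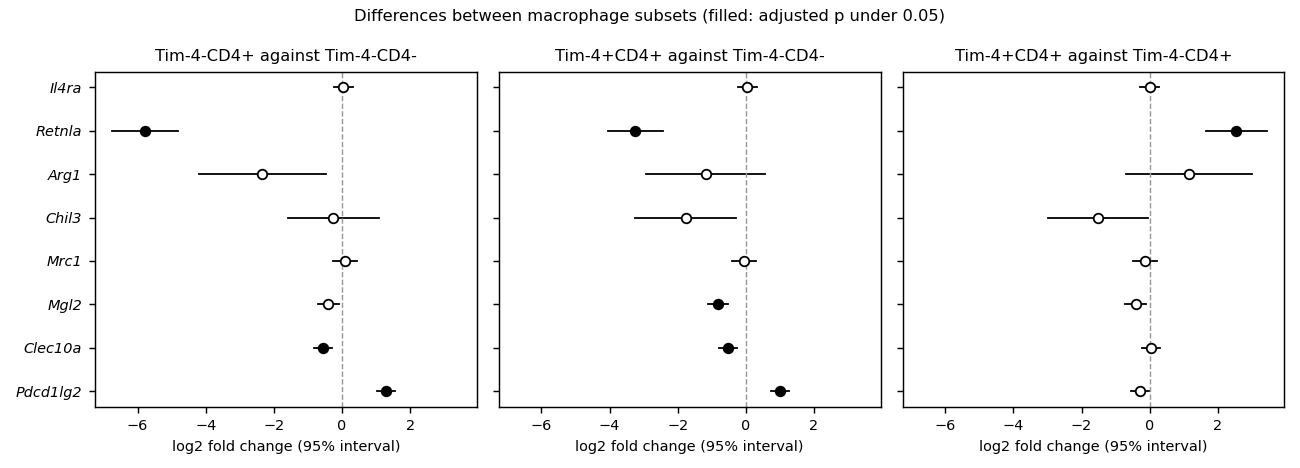
Log2 fold change (points) with 95% intervals (bars) of the 8 alternative activation genes in the 3 comparisons of macrophage subsets, filled where the adjusted p was under 0.05. Retnla lies at -5.78, -3.24 and 2.54, Pdcd1lg2 at 1.29, 0.99 and -0.30, and Il4ra and Mrc1 lie near 0 in all 3 panels.

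Levels of different genes were compared per kilobase of exon. In all 3 macrophage subsets Mrc1 was first, at 170.0 to 186 CPM per kb on average, followed by Mgl2, at 94.5 to 167, and Il4ra, at 74.6 to 76.8. In Tim-4-CD4- macrophages Retnla was the fifth, at 22.1 ± 6.79 CPM per kb (SD, n = 4), behind Clec10a at 35.5 ± 0.985 and ahead of Pdcd1lg2 at 12.6 ± 0.628. In Tim-4-CD4+ macrophages Retnla was at 0.417 ± 0.181 and in Tim-4+CD4+ macrophages at 2.35 ± 1.27 CPM per kb. Arg1 was last of the 8 in each subset, at 0.0418 to 0.222 CPM per kb. In monocytes Chil3 was first, at 1009 ± 550.4 CPM per kb (SD, n = 3), ahead of Il4ra at 32.0 ± 9.72. When the mean length of coding transcripts was used, Il4ra, Mgl2 and Mrc1 changed places among the first 3 in macrophages and Chil3 remained first in monocytes.

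**Figure D4:**
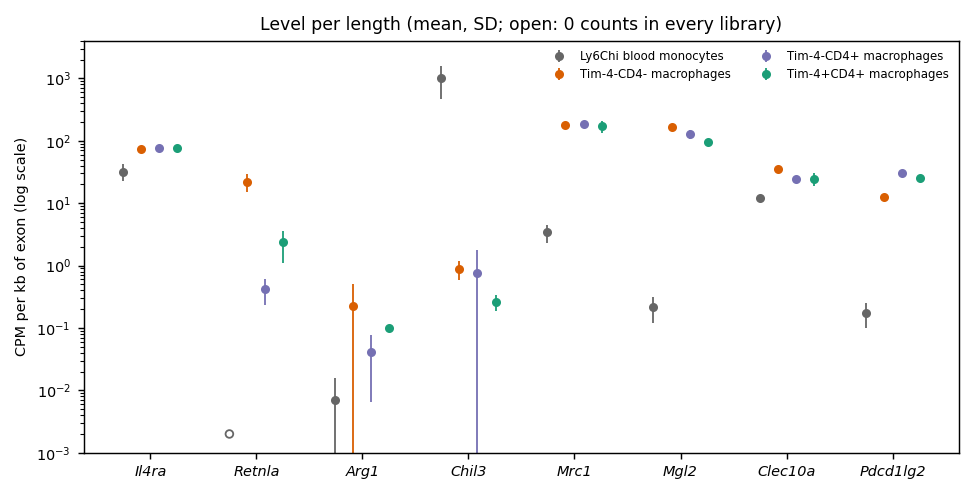
Mean level of each alternative activation gene in CPM per kilobase of exon (log scale) in the 4 populations, with bars for the SD over 3 monocyte or 4 macrophage libraries and an open circle for 0 counts in all libraries. Bars that reach 0 end at the axis, and Arg1 is lowest in each macrophage subset while Chil3 in monocytes, at 1009 CPM per kb, is the highest point.

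Across the 12 macrophage libraries the members did not move as a block. Log2 CPM of Retnla and Pdcd1lg2 had a Pearson r of -0.955, Retnla and Clec10a 0.759, Mgl2 and Clec10a 0.638, and Retnla and Mrc1 -0.145. These values are a description over libraries that share their subset means and depth. The genes most like Retnla among 11790 genes with a mean of at least 1 CPM were Crip1 (r = 0.933), Mta1 (0.932) and Cfl1 (0.919). Crip1, a LIM domain protein, was at 53.6 ± 6.97 CPM in Tim-4-CD4- and at 15.2 ± 3.14 and 16.5 ± 3.20 CPM in the CD4+ subsets (SD, n = 4). Those most like Pdcd1lg2 were Il12rb2 (0.982), a chain of the IL-12 receptor, Galm (0.971) and Nceh1 (0.967).

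The remaining members had like genes of other kinds. For Mgl2 they were Elovl5 (0.980), Slamf8 (0.964) and Scarf1 (0.962), and for Clec10a they were Blmh (0.977), Tomm22 (0.966) and Rpl3 (0.965). For Mrc1 they were Qk, Trip12 and Mtr (0.972 each), and for Il4ra they were Gm15706 (0.885), Mfsd5 (0.874) and Nubpl (0.870). Ly6c2 was among the 3 most like Chil3 (0.870), with Gm14548 (0.892) and Ppp3ca (0.887), and those most like Arg1 were Kdr (0.896), Zfp433 (0.878) and Col15a1 (0.849). Over all 15 libraries, 3 of these 24 genes were again among the 3 most like their member.

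A wider list of 22 genes tied to alternative activation in macrophages was read beside the members. Against monocytes, 16 were higher and 4 lower in each subset, where 37.3% to 39.5% of all genes were higher and 28.1% to 31.3% lower. Set against Tim-4-CD4- macrophages, the Tim-4-CD4+ subset had 4 of them higher and 9 lower, beside 4.52% and 5.53% of all genes. The Tim-4+CD4+ subset had 5 higher and 9 lower, beside 11.3% and 11.9% of all genes. The median log2 fold change of the list was -0.39 and -0.50 in these comparisons, and that of all genes tested was -0.003 and -0.005. Without Tim-4-CD4- replicate 3, 3 were higher and 7 lower, and 4 were higher and 6 lower. The shares above belong to the fit of all libraries. All genes called numbered 1589 and 3656 there, and 1033 to 2203 and 2887 to 3799 with a library left out. The smaller counts are therefore not read as a trait of the list. In Tim-4+CD4+ against Tim-4-CD4+ macrophages 2 were higher, Ccl24 and Cd163, and none was lower, beside 2.07% and 1.34% of all genes.

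The chemokines of the list split between the subsets. Ccl17 and Ccl22, ligands of CCR4, were highest in Tim-4-CD4- macrophages. Ccl22 was at 23.1, 14.4, 55.9 and 13.5 CPM there, at 3.41 to 5.18 CPM in Tim-4-CD4+ and at 2.54 to 5.29 CPM in Tim-4+CD4+ libraries. Ccl17 was at 0.838 to 2.93 CPM in Tim-4-CD4- libraries and at most 0.365 CPM in the others. Both genes are also made by dendritic cells, and the part of those cells in their levels was not tested. The highest Tim-4-CD4- library for both was replicate 3. Without it, the log2 fold change of Ccl22 was -1.94 in the Tim-4-CD4+ subset and -1.998 in the Tim-4+CD4+ subset, where it was -2.59 and -2.66 with all libraries, and that of Ccl17 was -3.22 and -3.31, where it was -3.54 and -3.64.

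Ccl24, the eosinophil attractant eotaxin 2, ran the other way. It was at 21.2, 17.6, 20.03 and 21.8 CPM in Tim-4-CD4-, 54.5, 64.9, 51.3 and 51.0 CPM in Tim-4-CD4+, and 136, 117, 104 and 119 CPM in Tim-4+CD4+ libraries. The 3 subsets did not overlap. Each step passed. The log2 fold change was 1.46 (SE 0.177, edgeR adjusted p = 4.6e-05) for Tim-4-CD4+ against Tim-4-CD4- macrophages. For Tim-4+CD4+ against Tim-4-CD4+ macrophages it was 1.10 (SE 0.174, edgeR adjusted p = 9.3e-04). The step pattern differed in order from that of Retnla, which was lowest in Tim-4-CD4+ macrophages.

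Cd163, the scavenger receptor for hemoglobin bound to haptoglobin, was at 101 to 163 CPM in Tim-4-CD4-, 152.4 to 229 CPM in Tim-4-CD4+ and 397 to 793 CPM in Tim-4+CD4+ libraries. It was 4.04-fold higher in Tim-4+CD4+ than in Tim-4-CD4- macrophages (log2 fold change 2.01, SE 0.194, edgeR adjusted p = 1.1e-06). Of the 3 endothelial markers in the lists, Pecam1 alone differed between subsets, at 104 ± 1.77 CPM in the Tim-4-CD4- subset, 185 ± 18.5 CPM in the Tim-4-CD4+ subset and 305 ± 24.4 CPM in the Tim-4+CD4+ subset (SD, n = 4). Cdh5 and Kdr passed in no comparison of subsets, with means of at most 5.24 and 4.89 CPM. The part of endothelial cells in the level of Pecam1 was not tested. Msr1, the scavenger receptor A, was higher in both CD4+ subsets, with log2 fold changes of 0.80 and 0.81 over Tim-4-CD4- macrophages. Socs2, an inhibitor of cytokine signaling, was higher by 0.79 and 1.00, and Slc7a2, an arginine transporter, by 1.67 and 1.08. The call on Slc7a2 in Tim-4+CD4+ macrophages held in 6 of 15 fits with 1 library left out, and that on Socs2 in Tim-4-CD4+ macrophages in 10 of 15.

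Among the transcription and chromatin regulators of the list, none passed as higher in a CD4+ subset. Egr2 was at 183 to 207 CPM in Tim-4-CD4-, 88.5 to 137 CPM in Tim-4-CD4+ and 72.9 to 97.8 CPM in Tim-4+CD4+ libraries, with log2 fold changes of -0.88 (SE 0.144) and -1.27 (SE 0.145) from Tim-4-CD4- macrophages. Myc fell by 0.51 and 0.66 and Kdm6b, a histone demethylase, fell by 0.45 and 0.62 on the log2 scale. The call on Kdm6b in Tim-4-CD4+ macrophages was lost without Tim-4-CD4+ replicate 1 or 2. Irf4 and Klf4 passed in Tim-4+CD4+ macrophages, at -0.67 and -0.50, and Irf4 lost its call without Tim-4-CD4- replicate 3, with an adjusted p of 0.056. Klf4 held its call in 11 of 15 fits with 1 library left out.

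Ear2, Flt1, Cdh1 and Fn1 made up the rest of the lower calls. Fn1 was at 23.1 to 36.2 CPM in Tim-4-CD4- macrophages and at 5041 to 6342 CPM in monocytes, and it was lower in both CD4+ subsets, by log2 fold changes of -1.20 and -0.82. The second of these held in 5 of 15 fits with 1 library left out. Cdh1, which encodes E-cadherin, was at 10.7 CPM in Tim-4-CD4- replicate 3 and at 1.28 to 1.45 CPM in the others of the subset, and its calls were lost without that replicate, at -1.28 and -0.97. Each Cdh1 call held in 11 of 15 fits with 1 library left out, the other losses being without Tim-4-CD4+ replicate 2, 3 or 4 in that subset and without Tim-4+CD4+ replicate 1, 3 or 4 in the other. Ear2 and Flt1 passed in Tim-4-CD4+ macrophages alone, at -0.73 and -1.48, with overlapping libraries, and their differences in Tim-4+CD4+ macrophages were -0.50 and -0.85. The Ear2 call held in 13 of 15 such fits, lost without Tim-4-CD4- replicate 3 or Tim-4-CD4+ replicate 4, and the Flt1 call in 11 of 15, lost without replicate 1 or 2 of either subset.

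**Figure D5:**
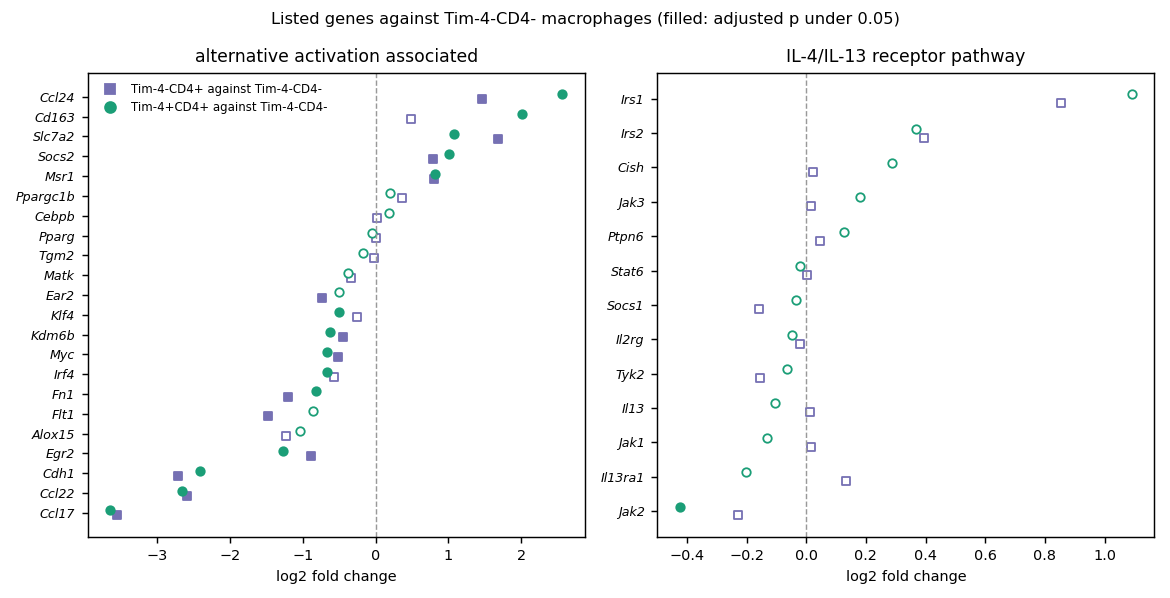
Log2 fold change from Tim-4-CD4- macrophages of 22 genes tied to alternative activation (left) and 13 genes of the IL-4 and IL-13 receptor pathway (right), as squares for Tim-4-CD4+ and circles for Tim-4+CD4+ macrophages, filled where the adjusted p was under 0.05. On the left Ccl17 lies at -3.54 and -3.64 and Ccl24 at 1.46 and 2.56, and on the right only the circle of Jak2, at -0.42, is filled.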

How the data were processed

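Stranded poly(A) libraries were sequenced as read pairs. Per the labels and the study's methods, the authors used Trimmomatic 0.36 for trimming, STAR with GRCm38.p4 for alignment, and HTSeq 0.6.1p1 with GENCODE annotation on uniquely mapped reads, and deposited counts per gene. Whether HTSeq used strand is not given in the sources used here. They also deposited a normalized signal, the counts divided by 1 factor per library, used here only to check that ratio. Symbols were matched for 19421 identifiers, and positions and lengths come from GENCODE M21. CPM used TMM-scaled totals.

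Genes were filtered with filterByExpr by population, and 1 edgeR 4.0.16 quasi-likelihood fit (R 4.3.3) over the 15 libraries gave 6 comparisons, with Benjamini-Hochberg adjustment over the 15802 genes tested and a threshold of 0.05. The standard error was the log2 fold change divided by the square root of F. Likeness used log2 CPM with a prior count of 2. The fit was tested on simulated data. Alternatives were DESeq2 1.42.0, other scalings and filters, fits of only 2 populations, replicate blocks and leaving out each library. Genes named were the 8 members, their paralogs, genes of 2 pathway lists called between subsets, the 3 genes most like each member and markers of sorting and of other cells. The members and lists were chosen with earlier results of these data known. Per the study, each library of a population came from a separate sort of pooled mice, so p-values measure the spread between sorts. Marker lists of eosinophils, neutrophils, mast cells, lymphocytes, epithelium, mesenchyme and endothelium each summed to at most 379 CPM in any library. A count of 0 was given a floor of 3 counts per library. The intervals of the pooled Arg1 ratios and the floors cover counting error only. The other intervals come from the edgeR fit and include the spread between libraries. No molecular identifiers were used. One marker and the sum that holds it are not reported here.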

Additional observations from a re-analysis of the deposited data

Results flagged for a closer look

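In 7 of 84 groups of 4 values, the value farthest from the rest was separated from its neighbor by a gap, as a share of the group's range, above Dixon's 95% limit, and chance alone gives about 1 in 20 groups. Arg1 was at 1.44 CPM in Tim-4-CD4- replicate 1 and at 0.151 to 0.235 CPM in the other libraries of the subset. Chil3 was at 3.79 CPM in Tim-4-CD4+ replicate 1, with the others at 0.228 to 0.513 CPM. Mgl2 was at 329 CPM in Tim-4-CD4+ replicate 3, with the others at 238 to 249 CPM. Cdh1 was at 10.7 CPM in Tim-4-CD4- replicate 3, with the others at 1.28 to 1.45 CPM. Jak2 was at 43.8 CPM in Tim-4+CD4+ replicate 1, with the others at 63.6 to 64.9 CPM, and Myc was at 39.2 CPM in Tim-4+CD4+ replicate 3, with the others at 31.8 to 32.8 CPM. The dendritic cell markers summed to 111 CPM in Tim-4+CD4+ replicate 3 and to 142 to 147 CPM in the others.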

How the results depend on the processing

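Of the 48 differences of the 8 members in 6 comparisons, 38 kept their direction and their side of the threshold in every alternative that gave a value, among 23 alternatives. Correlations of same-numbered libraries of different populations ran from -0.123 to 0.134 by the titles and from -0.0888 to 0.161 by the descriptions. They were over 0.1 in 3 and 5 of 21 pairs. Correlations between libraries with different numbers were not computed, so these values cannot decide whether the numbers pair the libraries. The main fit held no replicate block. With a replicate block by the descriptions, 2 receptor pathway genes passed in Tim-4+CD4+ against Tim-4-CD4- macrophages in place of 1, and with either block the call on Arg1 in Tim-4-CD4+ macrophages against monocytes was lost and no other member's call changed. The pathway count in that comparison was also 2 with upper-quartile scaling, DESeq2 or a mean of at least 1 CPM, and 0 to 2 with a library left out. In Tim-4-CD4+ against Tim-4-CD4- macrophages it was 1 with DESeq2 or in a fit of only the 2 populations, and 0 to 1 with a library left out, in place of 0. By DESeq2, 2 members passed in Tim-4+CD4+ against Tim-4-CD4+ macrophages, Retnla and Mgl2, in place of 1, and 917 of all genes in place of 539. All genes called in Tim-4-CD4+ against Tim-4-CD4- macrophages numbered 1589, and 1033 to 2203 with a library left out, with 1033 without Tim-4-CD4+ replicate 4.

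Differences that did not pass changed sign around 0. For Chil3 in Tim-4-CD4+ against Tim-4-CD4- macrophages, leaving out a library gave -1.70 to 0.086, with 0.025, 0.041 and 0.086 without Tim-4-CD4+ replicates 2, 3 and 4. For Arg1 in Tim-4+CD4+ against Tim-4-CD4- macrophages it gave -1.47 to 0.28, the highest without Tim-4-CD4- replicate 1. Mrc1 in Tim-4+CD4+ macrophages ranged from -0.15 to 0.089 against Tim-4-CD4- and from -0.23 to 0.0063 against Tim-4-CD4+ macrophages, with both highest values in the absence of Tim-4+CD4+ replicate 1. Between the CD4+ subsets, Clec10a ranged from -0.15 to 0.13, with -0.0015 in the absence of Tim-4-CD4+ replicate 2, and Il4ra from -0.034 to 0.048, with -0.029 and -0.00021 in the absence of Tim-4-CD4+ replicate 1 or Tim-4+CD4+ replicate 2. Il4ra was also -0.0032 in the fit of 2 populations and -0.0028 with the replicate block by titles. Chil3 in Tim-4+CD4+ against Tim-4-CD4- macrophages passed in the fit of 2 populations, at -1.73. The cause of these changes was not tested. Few counts limit Arg1 in all populations and Retnla in Tim-4-CD4+ macrophages.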
